A study of Mus musculus with 3 samples.

Results

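The Hox genes of the mouse were examined for histone H3 trimethylated on lysine 4 (H3K4me3), a histone mark of promoters, in granulosa cells during ovulation. Members were all protein-coding genes of the mm10 genome whose symbol is Hoxa, Hoxb, Hoxc or Hoxd followed by a number, which gave 39 of 21887 protein-coding genes. There were 11 in the Hoxa cluster on chromosome 6, 10 in Hoxb on chromosome 11, 9 in Hoxc on chromosome 15 and 9 in Hoxd on chromosome 2. Wild-type C57BL/6 females aged 21 to 28 days received 4 IU of eCG, a gonadotropin that makes follicles grow. Some ovaries were collected before the ovulatory hormone hCG (0 h). Others were collected once 4 h or 12 h had passed since an injection of 5 IU of it, and granulosa cells were released by puncturing follicles. Each time had 1 chromatin immunoprecipitation library, so no difference between times has a replicate check and none was tested. No source used here gives the number of mice behind a library.

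Hox genes encode homeodomain transcription factors that give cells their position along the body axis. The genes of a cluster lie in the order in which they act, from the anterior genes (paralog groups 1 to 3) through the central (4 to 8) to the posterior ones (9 to 13). Where a cluster is silent it is typically covered by Polycomb proteins and their mark H3K27me3, and where it is active by H3K4me3 laid down by the MLL family of methyltransferases. In the female reproductive tract the posterior Hoxa genes set the identity of oviduct, uterus and cervix.

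The promoters shown here include those of Hoxc4 and Hoxd3. These are the marked members with an entry in the promoter table whose peaks lay within 1 kb of the start. Also shown are those of Hoxa13 and Hoxd13, which had no peak. They hold the most CpG dinucleotides among the members with an entry. All promoters shown run from 250 bases before to 50 after the gene start, 5′ to 3′ on the gene's strand, with CpG in capitals. Their bases come from RefSeq on GRCm38.p6. Hoxc4 is chr15:103034145-103034444 and Hoxd3 chr2:74711743-74712042, both on the plus strand. Hoxa13 is chr6:52260831-52261130 on the minus strand and Hoxd13 is chr2:74667975-74668274 on the plus strand. They hold 9, 20, 45 and 37 CpG.
Hoxc4: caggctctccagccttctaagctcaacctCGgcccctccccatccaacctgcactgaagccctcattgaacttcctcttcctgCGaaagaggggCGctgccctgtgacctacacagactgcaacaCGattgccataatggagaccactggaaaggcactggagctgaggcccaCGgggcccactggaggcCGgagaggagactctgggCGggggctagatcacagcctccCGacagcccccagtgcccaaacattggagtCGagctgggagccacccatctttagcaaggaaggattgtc
Hoxd3: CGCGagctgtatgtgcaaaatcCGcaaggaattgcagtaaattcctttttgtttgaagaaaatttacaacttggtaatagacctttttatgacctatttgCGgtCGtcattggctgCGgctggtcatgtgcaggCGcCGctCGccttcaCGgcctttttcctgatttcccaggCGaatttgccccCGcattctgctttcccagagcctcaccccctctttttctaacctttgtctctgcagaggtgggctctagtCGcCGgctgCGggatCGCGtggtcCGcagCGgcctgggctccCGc
Hoxa13: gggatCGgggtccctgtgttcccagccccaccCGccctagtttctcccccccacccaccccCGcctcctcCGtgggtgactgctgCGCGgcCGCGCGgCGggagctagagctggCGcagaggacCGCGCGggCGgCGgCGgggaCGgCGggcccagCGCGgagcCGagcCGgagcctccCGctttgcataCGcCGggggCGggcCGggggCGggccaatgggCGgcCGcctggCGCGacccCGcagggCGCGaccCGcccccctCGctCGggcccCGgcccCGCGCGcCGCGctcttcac
Hoxd13: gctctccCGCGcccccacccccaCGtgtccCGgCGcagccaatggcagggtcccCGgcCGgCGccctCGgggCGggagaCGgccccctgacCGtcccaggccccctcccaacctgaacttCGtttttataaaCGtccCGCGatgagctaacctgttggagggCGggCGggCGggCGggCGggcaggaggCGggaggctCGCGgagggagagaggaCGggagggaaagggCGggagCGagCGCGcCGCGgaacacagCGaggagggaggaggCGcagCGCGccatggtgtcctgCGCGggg

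Most Hox genes had no H3K4me3 peak at any time. A gene was called marked when at least 1 bp of a peak lay within the gene or 1 kb around it, and covered bp is the length of peaks in that window. At 0 h 3 of 39 Hox genes were marked, against 53.0% of all protein-coding genes. At 4 h 5 were marked, against 54.9%, and at 12 h 4, against 52.8%. Over the 3 libraries 32 Hox genes (82.1%) were never marked, compared with 42.4% of all genes, and 2 (Hoxc4 and Hoxc6) were marked at every time, or 5.13% against 49.5%. Among the 14013 genes of lengths between the shortest and longest Hox gene (1784 to 44009 bp), 53.9%, 55.3% and 53.7% were marked at 0 h, 4 h and 12 h. The median Hox gene was 3737 bp long, and this set was cut at the range and not matched for length. The median covered bp was 0 for Hox genes in every library and 211, 285 and 207 for all genes.

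The peak lists hold no height or depth, so a gene without a peak is one below the authors' calling threshold and not one shown to lack the mark. In bulk chromatin a mark in a few cells and a weak mark in many cannot be told apart. The lists held 20669 to 23662 peaks on chromosomes 1 to 19, X and Y and covered 8.87, 10.1 and 8.93 Mb at 0 h, 4 h and 12 h. The 12 h library was run in lane 5 and the others in lane 4, and the peak names of the 12 h list lack a tag (nolambda) that the other lists carry, so lane and any difference in calling cannot be told apart from time.

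The Hoxa cluster had no peak in any library. It includes Hoxa2, which patterns the branchial arches, Hoxa5, which acts in lung development, and Hoxa10 and Hoxa11, which are needed for a receptive uterus. The peak-free interval around it was 627 kb long at 0 h, 626 kb at 4 h and 626 kb at 12 h. It ran from a peak at Skap2 to one at Hibadh in every list and held 12 protein-coding genes, the 11 Hoxa genes and Evx1, a homeobox gene next to Hoxa13. Of all intervals between neighbouring peaks, 4.18%, 3.80% and 4.43% were longer, and the median interval was 12.3, 12.8 and 17.9 kb.

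**Figure D1:**
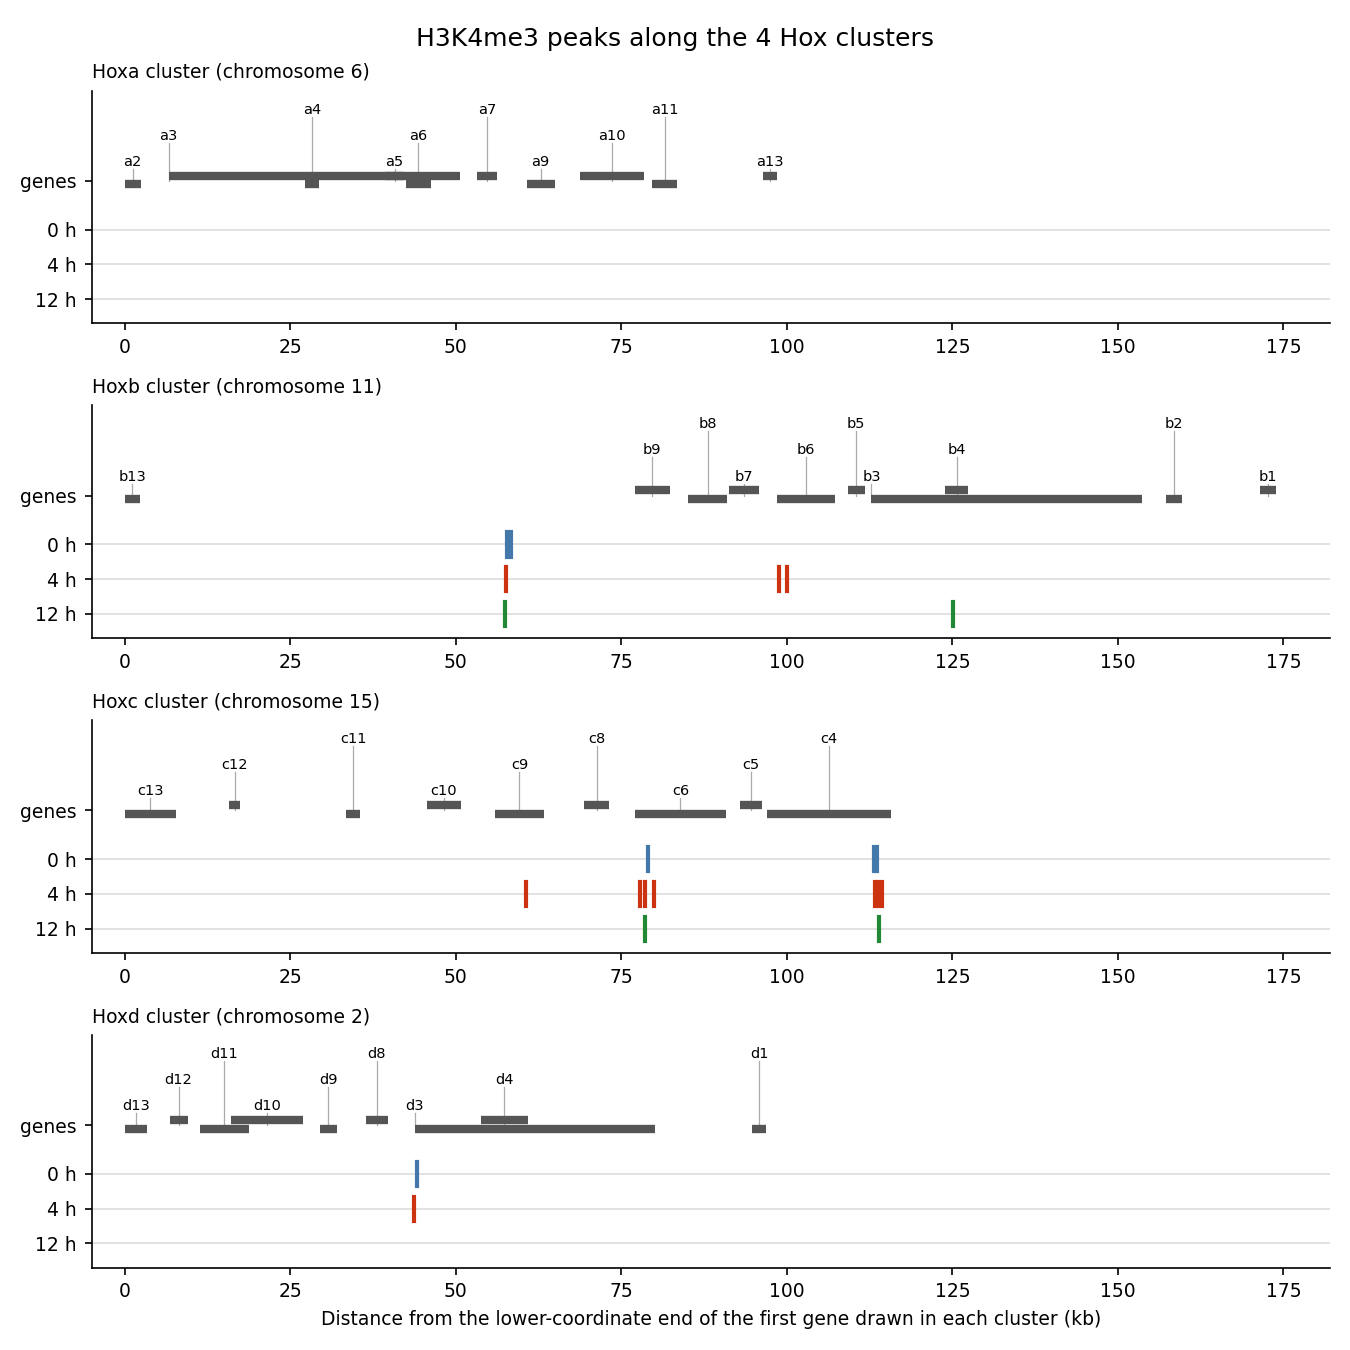
Genes (grey bars, upper track) and H3K4me3 peaks (vertical ticks of fixed width, lower tracks) at 0 h, 4 h and 12 h along the 4 Hox clusters, with distance in kb from the lower-coordinate end of the first gene drawn in each cluster; not every Hoxa gene is drawn. Hoxa has no tick, Hoxc holds most of the ticks and the posterior genes of Hoxd have none.

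In the Hoxb cluster 3 of 10 genes were marked in 1 library each. Hoxb6, a central gene, had 0 bp at 0 h, 398 bp at 4 h and 0 bp at 12 h. Its 4 h value came from 2 peaks, chr11:96292961-96293196 and chr11:96294280-96294441, both of which also lie in the antisense RNA gene Hoxb5os. The nearest peak of the 12 h list was 24830 bp away and the nearest of the 0 h list farther still. Hoxb4, known for expanding blood stem cells when overproduced, and Hoxb3, which acts in the hindbrain and thyroid, had 0 bp at 0 h and 4 h and 152 bp at 12 h. Their windows share the single peak chr11:96319272-96319423, which starts 1005 bp from the Hoxb4 start and has the smallest width of the 12 h list (152 bp). It therefore counts for 2 genes.

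The other 7 Hoxb genes, from Hoxb13, a prostate regulator, to Hoxb1, a hindbrain gene, had 0 bp throughout. The one mark of the Hoxb region present at every time lay outside all member windows, at the long non-coding RNA gene Gm53 between Hoxb13 and Hoxb9, with 818, 762 and 408 bp. Its first 0 h peak, chr11:96251775-96252280, was overlapped by a peak in both other lists. The peak-free interval over Hoxb7 to Hoxb9 was 524 kb at 0 h, 40.6 kb at 4 h and 67.3 kb at 12 h, with 5.14%, 36.0% and 29.7% of all intervals longer.

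In the Hoxc cluster 3 of 9 genes were marked, as many as in Hoxb, and 2 of them in every library. Hoxc6, a gene of the thoracic region, had 260 bp at 0 h, 793 bp at 4 h and 246 bp at 12 h. Hoxc4, at the anterior-facing end of the cluster, had 358, 819 and 218 bp. Both were high at 4 h and lower at 0 h and 12 h. Hoxc9, which patterns the thorax and spinal motor neurons, had 0, 230 and 0 bp, all from the peak chr15:102981643-102981872.

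At Hoxc4 the peaks lay around the start used in the promoter table, which is inside the annotated gene (chr15:103018097-103036856). Relative to that start they ran from -145 to -10 bp and from 295 to 516 bp at 0 h. At 4 h they ran from 0 to 146, from 276 to 643 and from 967 to 1270 bp, and at 12 h a single peak ran from 486 to 703 bp. The peak chr15:103034690-103034911 of the 0 h list was overlapped at 4 h and 12 h. It was the single place in the member windows with overlapping peaks in all 3 lists. The long non-coding RNA gene Gm30528, which reaches beyond the cluster, is annotated at these positions as well. Of the promoter bases printed above, the first 0 h peak covered 136, the first 4 h peak 50 and the 12 h peak 0.

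At Hoxc6 (chr15:102998226-103011882) all peaks lay inside the gene. They began 1860 bp from its lower-coordinate end at 0 h, 651, 1349 and 2654 bp from it at 4 h and 1368 bp from it at 12 h. The 12 h peak overlapped the middle 4 h peak, and 234 bp separated the 0 h peak from the nearest 4 h peak. Of the cluster's other members Hoxc5, between Hoxc6 and Hoxc4, had 0 bp in every library, as did Hoxc8 and the posterior genes Hoxc10, Hoxc11, Hoxc12 and Hoxc13, the last of which acts in hair and nail formation. The interval without peaks over Hoxc10 to Hoxc13 measured 253, 235 and 252 kb, with 10.1%, 10.4% and 10.7% of all intervals longer. Reads of the cluster's genes come from chromatin, so strand does not separate a gene from an overlapping RNA gene.

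In the Hoxd cluster 1 of 9 genes was marked. Hoxd3, which shapes the neck vertebrae, had 276 bp at 0 h, 226 bp at 4 h and 0 bp at 12 h. The 0 h peak ran from 238 to 513 bp after its start and the 4 h peak from -139 to 86 bp, so that the 4 h peak covered 189 of the 300 promoter bases printed above and the 0 h peak none. They did not overlap, with 151 bp between them, and both also lie in the RNA gene Hoxd3os1. The posterior genes Hoxd9 to Hoxd13, which pattern the limb and genital bud, had 0 bp, as did Hoxd8, Hoxd4 and Hoxd1. The peak-free interval over Hoxd8 to Hoxd13 was 133 kb at 0 h and 4 h, with 17.3% and 17.0% of all intervals longer. At 12 h it was 247 kb, with 11.0% longer, and held all 9 Hoxd genes and Evx2.

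By position in the clusters, 2 of 8 anterior, 4 of 15 central and 1 of 16 posterior genes were marked in at least 1 library. The anterior ones were Hoxb3 and Hoxd3, the central ones Hoxb4, Hoxb6, Hoxc4 and Hoxc6, and the posterior one Hoxc9. Among the 32 unmarked genes the nearest peak was 4.30 kb away at 0 h (Hoxd8), 2.80 kb at 4 h (Hoxb7) and 5.32 kb at 12 h (Hoxc8). Its median distance was 53.0, 47.0 and 96.4 kb. Of the 39 windows 19 overlapped that of another member, so members are not independent of each other.

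From 0 h to 4 h the question is which Hox genes gained or lost called peaks early after hCG. Hoxb6 and Hoxc9 gained a peak, 2 of 36 unmarked members (5.56%) beside 7.47% of all unmarked genes. Of the 3 marked members 0 lost all peaks, beside 3.02% of all marked genes. For genes marked in both libraries the log2 ratio of covered bp was centred by subtracting its median over all those genes, 0.11. It was 1.50 for Hoxc6, 1.08 for Hoxc4 and -0.40 for Hoxd3, with a median of 1.08. The first 2 were over 2-fold higher, a change seen in 5.53% of 11256 genes, and 0 were over 2-fold lower, beside 3.87%. Counting only 1 kb around either gene end left Hoxd3 as the member marked at both times and turned the median to -0.35.

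From 4 h to 12 h the question is which Hox genes kept a called peak during luteinization (the change of granulosa cells into progesterone-making luteal cells). Hoxb6, Hoxc9 and Hoxd3 lost all peaks, 3 of 5 marked members, beside 6.83% of all marked genes. At 4 h these members had 398, 230 and 226 bp, where all marked genes had a median of 849 bp and a 10th percentile of 302 bp. The share lost among genes with as few covered bp was not tested, so the 6.83% is not a like comparison. Hoxb3 and Hoxb4 gained their shared peak, 2 of 34 unmarked members beside 3.64%. The 2 members marked at both times had centred ratios of -1.78 (Hoxc4) and -1.56 (Hoxc6), with a median of -1.67, and both were over 2-fold lower, a change seen in 4.81% of 11203 genes. Members over 2-fold higher numbered 0, beside 3.41%. The median of all genes was -0.13. With peaks below the 25th percentile of width left out, the shared peak of Hoxb3 and Hoxb4 was gone and 0 members gained a peak.

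From 0 h to 12 h the ends of the series are compared. Hoxb3 and Hoxb4 gained a peak, 2 of 36 beside 5.68%, and Hoxd3 lost its peak, 1 of 3 beside 5.42%. Hoxd3 had 276 bp at 0 h, where the 10th percentile of all marked genes was 301 bp. The centred ratios were -0.70 for Hoxc4 and -0.06 for Hoxc6, with a median of -0.38, and the median of all genes was -0.01. Neither was past 2-fold in either direction, which 5.65% of 10978 genes were upward and 5.16% downward. The 3 comparisons share libraries, so the 4 h values of Hoxc4 and Hoxc6 enter the first and the second with opposite sign.

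**Figure D2:**
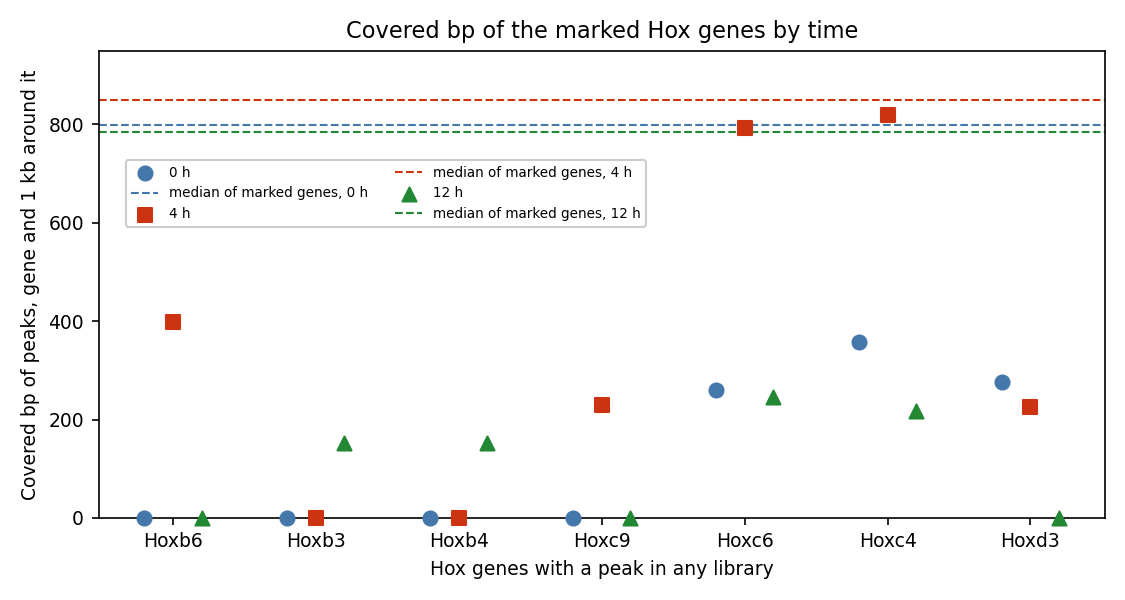
Covered bp of peaks in the gene and 1 kb around it (vertical axis) for the 7 Hox genes with a peak in any library, with 1 point per library. Dashed lines are the medians of all genes with a peak at that time (798, 849 and 785 bp), and every point lies below the line of its own time.

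The marked members carried little covered bp. Over marked members it ranged from 260 to 358 bp at 0 h, 226 to 819 bp at 4 h and 152 to 246 bp at 12 h. The medians were 276, 398 and 185 bp, beside 798, 849 and 785 bp over all marked genes. The highest Hox value stood at percentile 13.9 of marked genes at 0 h, 47.2 at 4 h and 7.33 at 12 h. Summed over the 4 cluster spans, Gm53 included, peaks covered 1712 bp at 0 h, 3228 bp at 4 h and 1024 bp at 12 h. The Hoxc span reached the highest share, 1.56% of 118 kb at 4 h.

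In the member windows 4 peaks were called at 0 h, with 10 at 4 h and 3 at 12 h. Their median widths were 241, 233 and 218 bp, and 4 of 4, 8 of 10 and 3 of 3 were narrower than the median peak of their list (306, 315 and 333 bp). The widest, at Hoxc4 at 4 h, had 368 bp. Fewer were found again at another time than in the lists as a whole. Of the 0 h, 4 h and 12 h peaks in Hox windows 1, 2 and 2 overlapped a peak of another list. Among all peaks of up to 368 bp this held for 79.8%, 72.8% and 82.2%. These shares are a description, since 1 library a time gives no test, and non-overlapping peaks at Hoxc4 were as close as 9 bp.

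Base composition of the promoters was set beside the peaks. The RefSeq promoter table held 24 entries for 22 Hox genes, and a promoter was counted as marked when a peak lay within 1 kb of its start. Among all 21263 promoters of protein-coding genes, 82.5%, 84.8% and 82.9% of the 8650 with at least 55% C+G and a CpG observed-over-expected ratio of at least 0.6 were marked at 0 h, 4 h and 12 h. Of the 9 Hox promoters in that class 0 were marked at any time. These are the ones of Hoxa3, Hoxa5, Hoxa6, Hoxa13, Hoxd1, Hoxd10, Hoxd13, a downstream start of Hoxa10 and a downstream start of Hoxd11. The table does not cover the clusters evenly: 20 of the 24 entries are Hoxa or Hoxd genes, and 4 of the 7 marked members (Hoxb3, Hoxb6, Hoxc6 and Hoxc9) have no entry and so enter neither class. Of the other 15 Hox promoters Hoxc4 was marked at every time and Hoxd3 at 0 h and 4 h, beside 25.9%, 26.8% and 25.2% of all such promoters. Hoxd3 lies just outside the CpG-rich class, with 54.0% C+G and a ratio of 0.92, while the ratio of Hoxc4 was 0.33.

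The median C+G of Hox promoters was 57.7% and their median CpG ratio 0.63, against 56.3% and 0.57 for all promoters. The share of all promoters with a peak climbed with the CpG ratio, from 3.02% at 0 h below 0.2 to 90.6% at 1.0 or more. In the range from 0.8 to 1.0 it was 86.0% at 0 h, and 1 of 8 Hox promoters, that of Hoxd3, was marked.

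**Figure D3:**
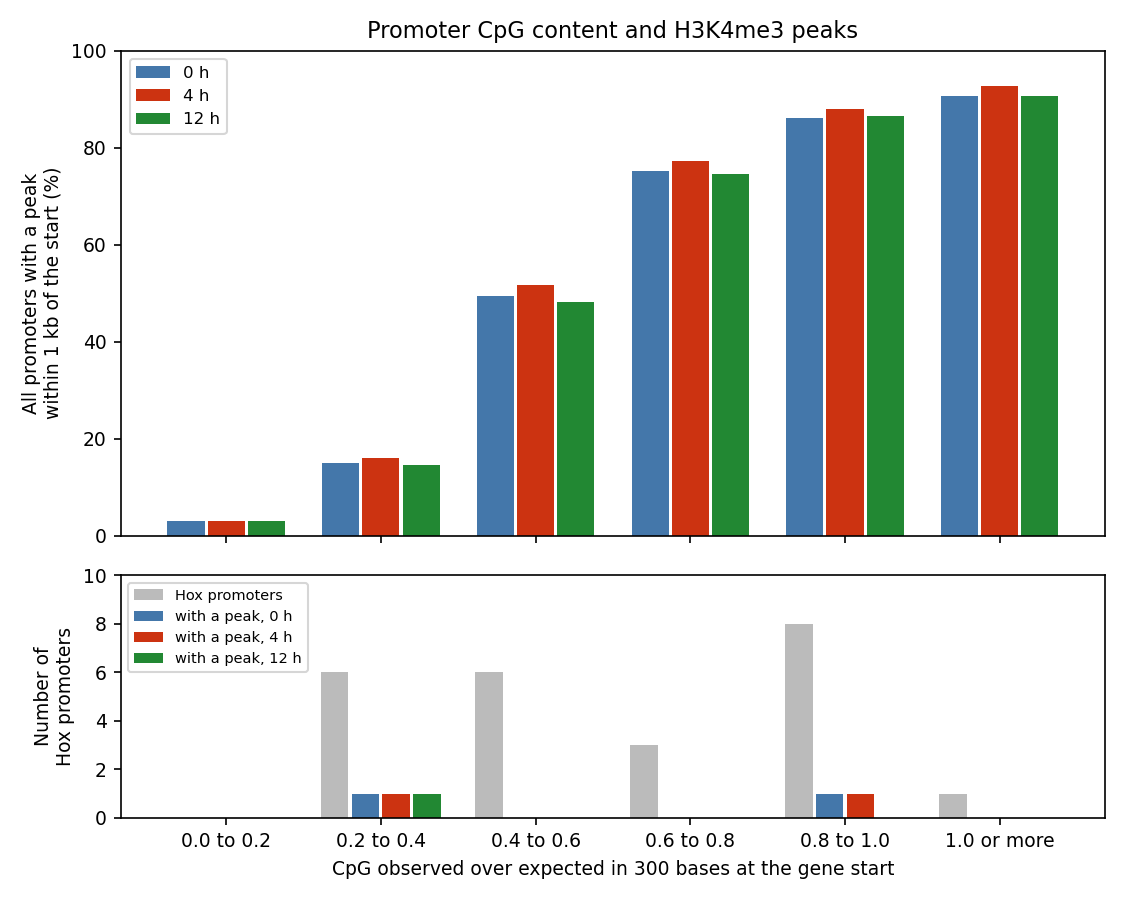
Upper panel: percent of all promoters with a peak within 1 kb of the gene start, by CpG observed-over-expected ratio of the 300 promoter bases and by time. Lower panel: number of Hox promoters in each range (grey) and of those with a peak at 0 h, 4 h and 12 h (coloured), where 1 promoter is marked in the range from 0.2 to 0.4 (Hoxc4) and 1 at 0 h and 4 h in the range from 0.8 to 1.0 (Hoxd3).

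Motifs were searched in the same promoters on both strands, with overlaps between motifs allowed. The box CCAAT was found in 15 of 24 Hox promoters (62.5%), those of Hoxc4 and Hoxd3 included, beside 38.2% of all promoters. TATAAA was found in 4 (16.7% beside 12.6%), namely Hoxa10, Hoxb8, Hoxd4 and Hoxd13. TGATTNAT, bound by Hox proteins with their PBX partners, was found in 2, Hoxa2 and Hoxd11 (8.33% beside 2.75%). The cyclic AMP response element TGACGTCA was in 0 of 24 beside 2.23%, and the retinoic acid receptor direct repeat in 0 beside 0.25%. These matches are letters in the window and not measured sites.

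Within their bounds the clusters also hold 31 annotated genes of other types, of which 24 are long non-coding RNA genes, 6 are microRNA genes and 1 is a pseudogene. Within 1 kb of 6 of the 24 long RNA genes a peak was found at some time, in 3 at 0 h, 6 at 4 h and 1 at 12 h. The 6 were Gm53, Hoxb5os, Gm36878 at Hoxc9, Gm29905 at Hoxc6, and Gm38462 and Hoxd3os1 at Hoxd3, and apart from Gm53 their peaks are those already counted for members. Hotair, a long RNA of the Hoxc cluster, and Hotairm1, one at the anterior end of Hoxa, had 0 bp throughout.

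The microRNA genes had no peak within 1 kb in any library. Mir10a lies inside the annotated Hoxb3 gene, and Mir10b inside both Hoxd3 and Hoxd4. Hoxb3 and Hoxd3 were marked at some time and Hoxd4 at none. Mir196a-1, Mir196a-2 and Mir196b lie between posterior genes. The 5p mature forms of the Mir10 and Mir196 genes are shown because they fall into 2 groups that share a seed, bases 2 to 8 from the 5′ end, in capitals. miR-196a-5p is made from both Mir196a genes.
mmu-miR-10a-5p: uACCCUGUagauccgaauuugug
mmu-miR-10b-5p: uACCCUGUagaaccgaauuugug
mmu-miR-196a-5p: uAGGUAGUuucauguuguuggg
mmu-miR-196b-5p: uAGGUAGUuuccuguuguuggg

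The protein-coding genes next to the clusters differed among themselves. Mtx2, a mitochondrial import gene 60.7 kb from Hoxd1, had 676, 683 and 649 bp at 0 h, 4 h and 12 h. Skap2 beside Hoxa had 569, 493 and 228 bp, Calcoco1 beside Hoxc 687, 687 and 532 bp, and the DNA repair gene Smug1 on the other side of Hoxc 319, 620 and 615 bp. Evx1 and Evx2, homeobox genes beside Hoxa13 and Hoxd13, and Ttll6 and Skap1 beside Hoxb had 0 bp in every library.

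Genes in the TALE, Polycomb, MLL and retinoic acid lists were marked more often than the Hox genes. Of all protein-coding genes 53.0%, 54.9% and 52.8% were marked at 0 h, 4 h and 12 h. Of 11 genes of the TALE homeodomain class, some of which bind DNA together with Hox proteins, 9, 10 and 10 were marked. These are 81.8%, 90.9% and 90.9%. Pknox2 had 1453, 1786 and 1535 bp, and Tgif2 1016, 1499 and 1356 bp. Meis1, a cofactor of posterior Hox proteins, had 826, 635 and 1032 bp. Meis3 had 0, 199 and 242 bp, and Pbx4 0 bp throughout.

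Of 30 genes of Polycomb subunits, 28, 29 and 27 were marked, and of 18 genes in the list of MLL complexes and H3K27 demethylases 17 at each time. The latter list also holds Ctcf, with 1296, 1159 and 790 bp, and Dot1l, with 1317, 1765 and 1427 bp, which are neither. Jarid2, a Polycomb partner, had 2569, 2289 and 2107 bp, and Kdm6b, an H3K27 demethylase gene, had 1985, 2451 and 2027 bp. A list of 17 genes that act upstream of Hox genes in the embryo, mostly retinoic acid and Cdx genes, had 6, 7 and 8 marked. These are 35.3%, 41.2% and 47.1%, below the share of all protein-coding genes at each time. The list also holds T, with 0 bp throughout, and Gdf11, with 482, 630 and 365 bp. The retinoic acid receptor gene Rarg had 1425, 1201 and 520 bp and Rara 512, 1052 and 397 bp. Cdx1, Cdx2 and Cdx4, direct activators of Hox genes, had 0 bp.

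Other homeobox genes with roles in patterning resembled the Hox genes in their share of marked members. Of 41, 5 were marked at 0 h, 7 at 4 h and 4 at 12 h, and 33 never. Emx2, needed for the developing gonad and kidney, had 0, 1080 and 752 bp, more than any Hox gene at 4 h and 12 h. Irx3, an ovarian follicle gene, had 650, 863 and 819 bp, Msx1 722, 386 and 736 bp and Six4 264, 575 and 0 bp. Of the 22 CpG-rich promoters of this list 5, 5 and 3 were marked, where 0 of 9 such Hox promoters were.

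**Figure D4:**
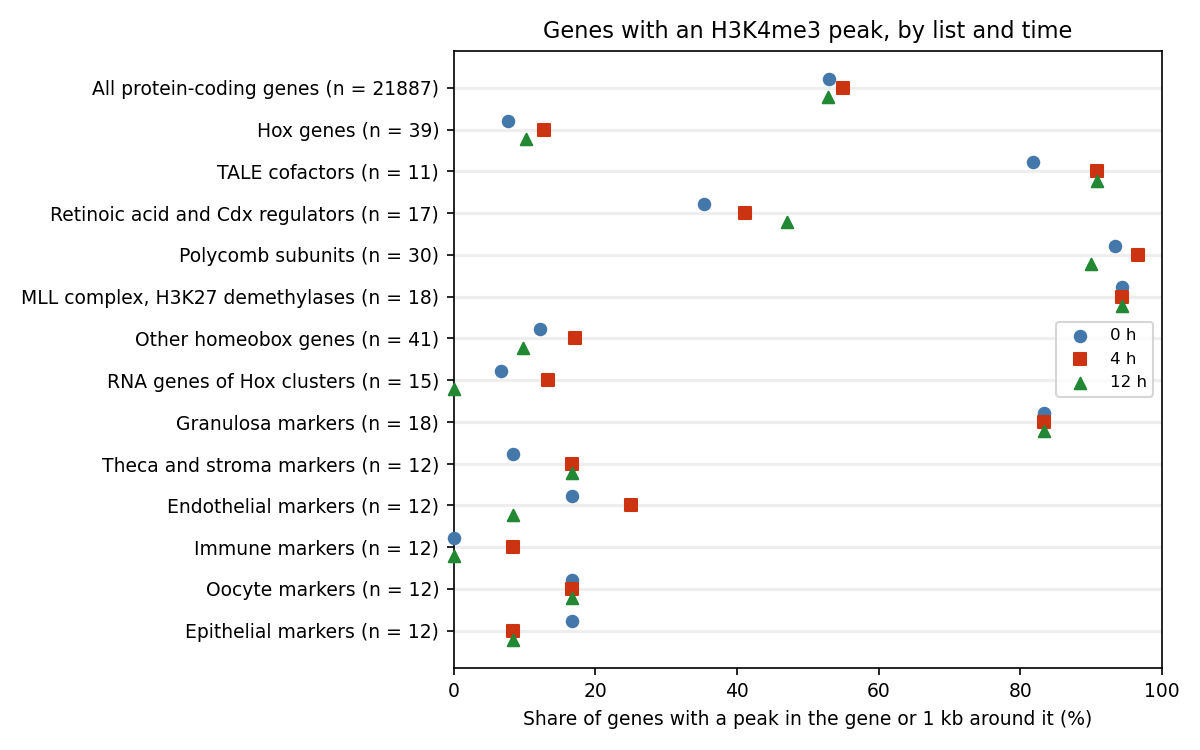
Share of genes (percent, horizontal axis) with a peak in the gene or 1 kb around it, for all protein-coding genes, Hox genes and each gene list, with 1 point per library. Hox genes lie at 7.69%, 12.8% and 10.3%, near other homeobox genes (12.2%, 17.1% and 9.76%). Far above them lie Polycomb subunits, granulosa markers and the genes labelled TALE cofactors, not all of which bind DNA with Hox proteins.

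The labelled cell type was checked on the same measure. Of 18 granulosa markers 15 were marked at each time, among them Fshr, the FSH receptor gene (1707, 1495 and 675 bp), and Foxl2, a granulosa identity factor (174, 356 and 543 bp), and Amh had 0 bp throughout. Of 12 markers each, theca and stroma had 1, 2 and 2 marked, endothelium 2, 3 and 1, immune cells 0, 1 and 0, oocytes 2 at each time and epithelium 2, 1 and 1. Summed covered bp at 0 h, 4 h and 12 h was 17884, 17863 and 10743 for the granulosa list. It was 1880, 2144 and 2135 for theca and stroma, nearly all of it from Nr2f2 (1880, 2005 and 1943 bp). For endothelium it was 522, 665 and 164, and for immune cells 0, 139 and 0. For oocytes it was 1097, 1410 and 704, most of it from Gdf9, an oocyte growth factor gene (810, 1127 and 530 bp), and for epithelium 905, 613 and 256. The sums of endothelium, immune cells and oocytes were highest at 4 h, and that of epithelium at 0 h. The granulosa sum was nearly equal at 0 h and 4 h, and that of theca and stroma at 4 h and 12 h. Covered bp in the Hox clusters was highest at 4 h, as it was in the list as a whole (10.1 Mb, beside 8.87 Mb at 0 h and 8.93 Mb at 12 h). Of the 12 endothelial markers 8, Pecam1 among them, had 0 bp in every library. The others were Kdr with 0, 347 and 164 bp, Egfl7 with 220, 148 and 0 bp, Sox18 with 302, 0 and 0 bp and Erg with 0, 170 and 0 bp. Ptprc, an immune marker, had 0, 139 and 0 bp. The part of these cell types in the Hox values was not tested.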

How the data were processed

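H3K4me3 was profiled by chromatin immunoprecipitation and sequencing with 1 library per time, grouped by the labels' time points. The authors deposited 1 peak list per library with chromosome, start, end and name in bp, with no score, height or other measured unit. Per the submitters' processing notes the genome build was mm10 and the tools included MACS2 2.0.9, Bowtie2 2.2.3 and CASAVA 1.8. No source used here states the peak threshold or whether input DNA served as control. Depth is unknown, so no precision from depth can be given. Gene positions came from RefSeq on GRCm38.p6, which shares mm10 coordinates and here gives gene ends without exons. Covered bp was computed per gene in Python 3.11.15 with numpy 2.4.6 and pandas 2.3.3. The code was checked on the 0 h list against a direct count, and with peaks added to and removed from that list. All 39 members are accounted for. Full values were given for members that gained or lost all peaks, passed 2-fold or were among the 3 with most covered bp of their cluster, for flanking genes, and for members of other lists among the 5 with the largest change in covered bp. Meis3, Pbx4, the Cdx genes, T, Gdf11, Jarid2 and, among named cell markers, Foxl2, Amh and Pecam1 fall outside that rule. They and the other named cell markers were chosen after their values were seen. Members and lists were chosen with earlier results of these data known. Alternatives were other windows, peak filters, joining of peaks and assignment to the nearest gene. Values of some single genes are not reported here.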

Additional observations from a re-analysis of the deposited data

How the results depend on the processing

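No paired analysis was possible because each time had 1 library. With the reported setting and 8 alternatives the number of Hox genes marked at any time was 3 to 10 of 39. Within 5 kb of the gene 8 were marked at 4 h, 4 gained a peak by 4 h, 6 lost all peaks from 4 h to 12 h and 2 from 0 h to 12 h. With only 1 kb around either gene end 1, 3 and 0 were marked at 0 h, 4 h and 12 h, and 0 gained a peak by 12 h from 0 h or from 4 h. Without narrow peaks 2 were marked at 12 h, and 0 gained a peak by 12 h from either time. With each peak assigned to the nearest gene 1 gained a peak by 12 h from either time.

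The median centred log2 ratio from 0 h to 4 h was -0.35 with gene ends alone, against 1.08 as reported. It was 0.34 within 5 kb, 1.49 without narrow peaks, 1.50 with equal numbers of the widest peaks, 0.89 with joined peaks and 1.09 with the nearest gene. From 4 h to 12 h it was -1.69 in the gene alone, -1.66 within 5 kb, -1.53 without narrow peaks, -1.56 with equal numbers, -1.66 with at least 150 bp, -2.38 with joined peaks and -1.68 with the nearest gene. From 0 h to 12 h it was -0.41 in the gene alone, -0.046 without narrow peaks, -0.058 with equal numbers, -0.81 with joined peaks and -0.39 with the nearest gene. Only ratios from 0 h to 4 h could be had with gene ends alone. Covered bp of the clusters at 0 h and 4 h was 1576 and 2919 without narrow peaks, 1576 and 3081 with equal numbers and 2167 and 4191 with joined peaks, and at 12 h it was 872 without narrow peaks. The cause of these shifts was not tested. Of 96 alternative values of single members whose reported value was above 0, 22 moved. The other 72 belong to reported values of 0, which filters and narrower windows cannot change, and say nothing of stability. Depth is unknown, so unmarked genes may lie just under the calling threshold.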
